A study of Homo sapiens with 6 samples.

Results

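The splicing factor genes of 3 families were followed in breast cancer cells treated with a CDK4/6 inhibitor: the SRSF genes, which encode the serine- and arginine-rich (SR) splicing factors, the HNRNP genes, which encode heterogeneous nuclear ribonucleoproteins, and the SNRP genes, which encode proteins of the small nuclear ribonucleoproteins (snRNPs). Members were the protein-coding genes whose symbols start with SRSF, HNRNP or SNRP, a rule that uses no measured value but was set with earlier results of these data known. Of 60656 genes in the count table, 248 had such a symbol, 197 of these were pseudogenes or other genes that are not protein-coding, and 51 were members (12 SRSF, 27 HNRNP and 12 SNRP genes). RNA came from ZR-75-1, an established oestrogen receptor-positive human breast cancer line, in its parental form without further genetic change. Cells in RPMI-1640 medium with fetal bovine serum received either abemaciclib, which inhibits CDK4 and CDK6, at 500 nM or the same volume of its solvent DMSO, and RNA was taken after 4 days. Each arm had 3 libraries, described by the study as independent biological replicates, so P values speak of the spread between these cultures of 1 cell line. The libraries were made with a 3′ mRNA kit, in which reads come from the end of each polyadenylated transcript, so that a count represents a transcript irrespective of length.

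Splicing removes introns from pre-mRNA in the spliceosome, whose snRNPs each pair a small nuclear RNA with proteins. SR proteins usually bind exons and help the spliceosome to choose splice sites, whereas hnRNP proteins coat nascent RNA, often compete with SR proteins and also act in RNA export, stability and translation. The Sm proteins, encoded by most SNRP genes, form a ring around the RNA of most spliceosomal snRNPs. Other SNRP proteins belong to the U1 or the U2 snRNP alone.

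Library totals lay between 3317860 and 4013156 counts. Levels are given as CPM, counts divided by the library total and multiplied by a constant, after TMM scaling, which corrects totals for differences in composition, and a count of 3, the limit that a count of 0 allows, was worth 0.74 to 0.909 CPM (counting error only). The labelled cell type was checked on its markers: the luminal genes ESR1, GATA3, FOXA1, KRT8, KRT18 and KRT19 were all expressed, KRT5, KRT14, VIM, PTPRC and PECAM1 had 0 counts in all 6 libraries, and COL1A1, a fibroblast marker, was at 13.1 ± 2.68 CPM with DMSO and 12.5 ± 2.67 CPM with abemaciclib (SD, n = 3 each). The treatment was visible in MKI67, a proliferation marker, which averaged 526 CPM with DMSO and 5.00 CPM with abemaciclib, and TOP2A, CDK1, RRM2 and MCM2 were lower too (edgeR quasi-likelihood test, adjusted P under 0.05 for all 5). In bulk RNA, a lower level per cell and a smaller share of cells that express a gene cannot be told apart, and CPM are shares of a library that carry no information on total RNA per cell. Abemaciclib replicate 3 stood apart from the other libraries of its arm by 1 of 2 measures. Its counts differed from theirs by a chi-square of 7.57 and 7.94 per degree of freedom over genes. This value was 3.59 between replicates 1 and 2 and 2.92 to 4.43 among DMSO libraries. The mean absolute log2 difference per gene from the other libraries of the same arm hardly set replicate 3 apart. That difference was 0.364 for abemaciclib replicate 3, 0.358 and 0.348 for replicates 1 and 2, and 0.324 to 0.344 for DMSO libraries. Values without abemaciclib replicate 3 are given for SRSF11 and for the SNRP genes whose call that library changed.

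Most members fell. Of the 51 members, 44 had enough counts for the test, 30 of these were lower with abemaciclib, 1 was higher and 13 did not pass the threshold (edgeR quasi-likelihood test, Benjamini–Hochberg adjustment over all 10863 genes tested, adjusted P under 0.05). The share of lower members was 68.2%, where 13.3% of all genes tested were lower and 12.5% were higher. Most members are abundant, and among genes with a mean of at least 20 CPM the background was 15.6% lower and 17.2% higher, beside 29 lower and 1 higher of the 41 members at that level. The median log2 fold change of tested members was −0.52, against 0.00 for all genes tested. Every abemaciclib library was below every DMSO library in 32 of the 44 tested members (72.7%) and in 20.1% of all genes tested. The summed level of all members was 10543 ± 301 CPM with DMSO and 7329 ± 288 CPM with abemaciclib (SD, n = 3 each), and so fell by 30.5% relative to all counts.

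**Figure D1:**
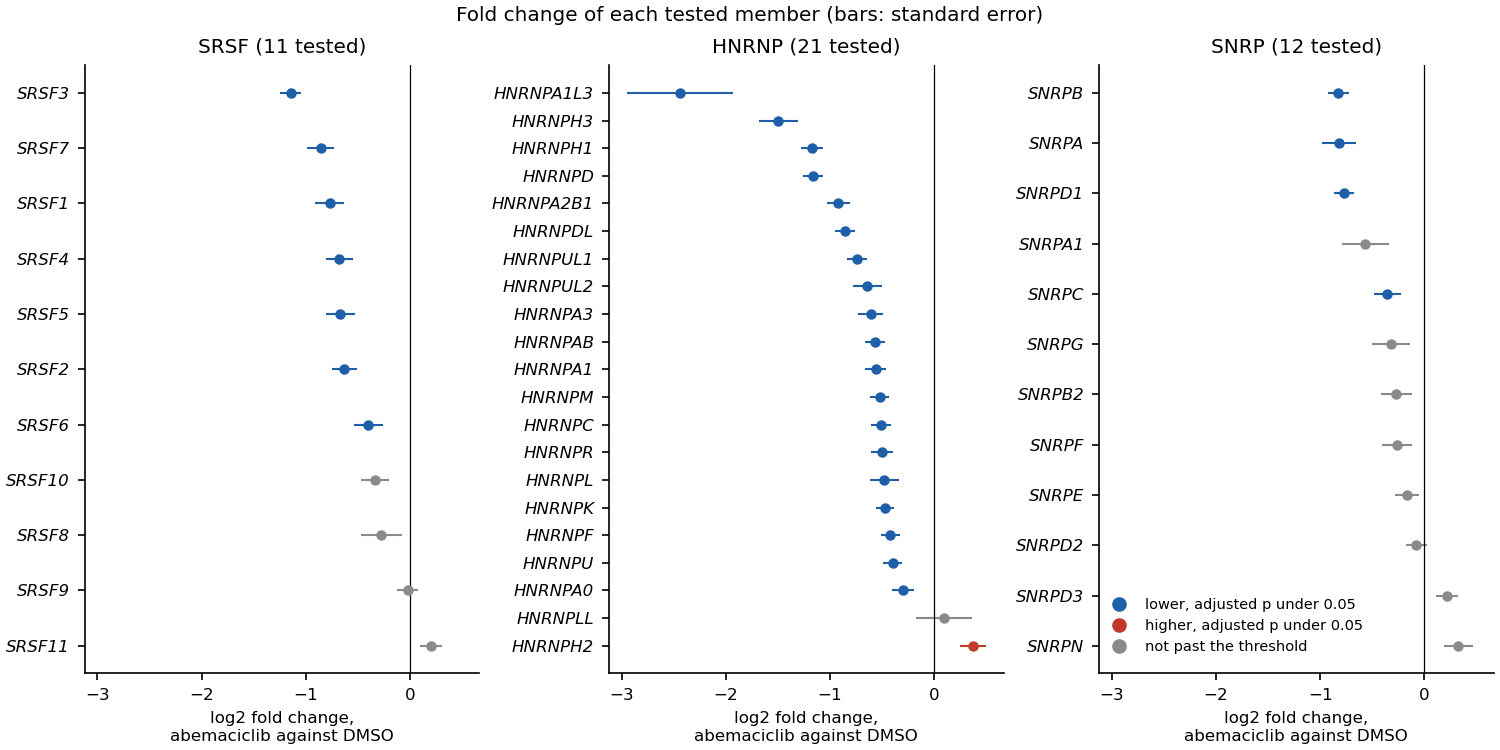
The log2 fold change with abemaciclib against DMSO (x axis) is plotted for each tested SRSF, HNRNP and SNRP gene, with bars for the standard error and colour for the edgeR result. HNRNP genes lie left of 0 except HNRNPLL and HNRNPH2. SNRP genes lie left of 0 except SNRPD3 and SNRPN, and range from SNRPB at −0.82 to SNRPN at 0.33.

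**Figure D2:**
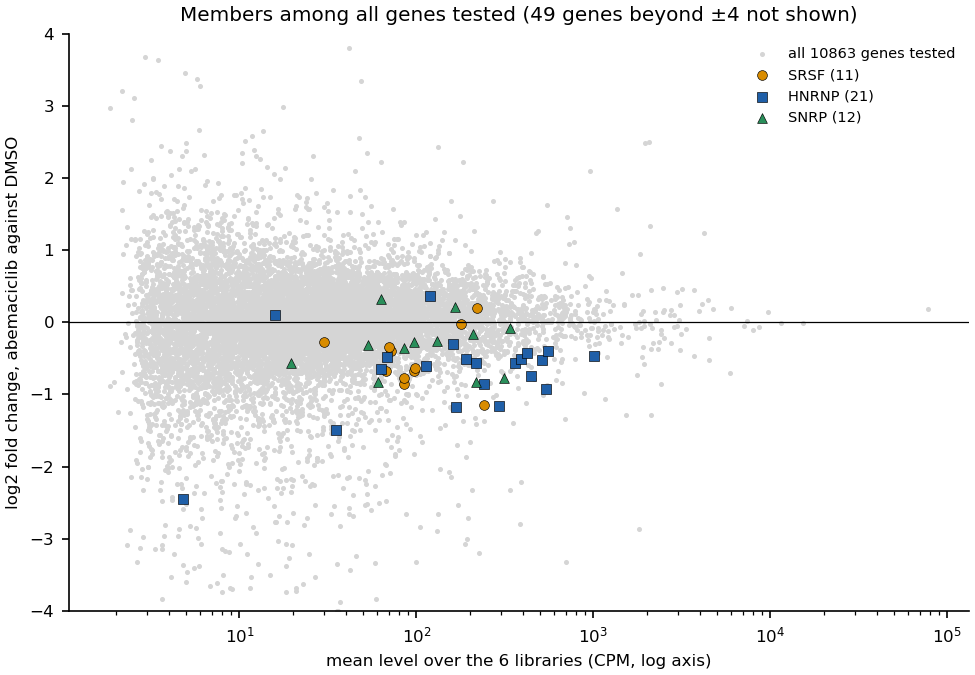
Each grey point is 1 of the 10863 genes tested, with its mean level over the 6 libraries in CPM (x axis, log scale) and its log2 fold change (y axis), and coloured symbols mark members of the 3 families. Most members lie below 0 and in the abundant range, with HNRNPK highest at a mean of 1013 CPM.

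Most SRSF genes fell, among them the factors SRSF1, SRSF2, SRSF3 and SRSF7. Of 11 tested, 7 were lower and 0 were higher by edgeR (0 higher also at an unadjusted P under 0.05, and 6 lower and 0 higher by DESeq2), with a median log2 fold change of −0.63. Their summed level went from 1450 ± 63.5 CPM with DMSO to 1043 ± 51.2 CPM with abemaciclib (SD, n = 3 each), and so fell by 28.1%. SRSF12 had 0 counts in every library and was not tested.

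SRSF3, a small SR protein that also serves in mRNA export, fell most of the SRSF genes and was the most abundant of them with DMSO, whereas SRSF11 and SRSF9 were above it with abemaciclib. It lies on chromosome 6 from 36594353 to 36605600 (GRCh38, plus strand). Its level was 318, 345 and 337 CPM in DMSO replicates 1, 2 and 3 and 148, 144 and 161 CPM in abemaciclib replicates 1, 2 and 3. The arms were far apart, with little spread inside either. The log2 fold change was −1.14 (SE 0.10, adjusted P = 4.11e-10, edgeR).

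SRSF7, which shares the export function and carries a zinc knuckle, was at 117, 122 and 91.5 CPM with DMSO and at 59.6, 57.7 and 65.1 CPM with abemaciclib. The third DMSO library was the lowest of its arm, yet above every treated one, and the log2 fold change was −0.86 (SE 0.13, adjusted P = 1.28e-05, edgeR). SRSF1, the founding SR protein and a known proto-oncogene, had 127, 108 and 85.1 CPM with DMSO and 58.1, 60.2 and 69.7 CPM with abemaciclib. The arms did not overlap although the DMSO libraries spread widely, and SRSF1 fell by 0.77 on the log2 scale (SE 0.14, adjusted P = 0.000128, edgeR).

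SRSF4, SRSF5 and SRSF6 encode related SR proteins with a pair of RNA recognition motifs. SRSF4 was at 109, 139 and 110.3 CPM with DMSO and 79.9, 81.4 and 63.0 CPM with abemaciclib (log2 fold change −0.68, SE 0.13, adjusted P = 0.000277, edgeR). SRSF5 was at 84.4, 79.9 and 83.0 CPM with DMSO and 55.1, 44.7 and 56.2 CPM with abemaciclib (−0.67, SE 0.14, adjusted P = 0.000502). All treated libraries lay below all control libraries for both genes. SRSF6 fell by 0.40 on the log2 scale (SE 0.14, adjusted P = 0.0347, edgeR). The SRSF6 call was lost in 6 of 13 alternatives, including DESeq2 (adjusted P = 0.0915) and the fits that left out replicate 1 or 2 of DMSO (0.0555 and 0.282, the latter at −0.25) or replicate 1 or 2 of abemaciclib (0.069 and 0.0757). SRSF2 (SC35), a factor found in nuclear speckles, averaged 119 ± 10.2 CPM with DMSO and 76.9 ± 5.54 CPM with abemaciclib (SD, n = 3 each; log2 fold change −0.63).

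The other 4 tested SRSF genes did not pass the threshold. SRSF9, a relative of SRSF1, was at 175, 176 and 189 CPM with DMSO and 182, 175 and 175 CPM with abemaciclib, and its 3′ end overlaps GATC on the opposite strand. The arms overlapped, with a log2 fold change of −0.02 (SE 0.10, adjusted P = 0.911, edgeR). SRSF11, an SR-related protein, had 204, 208 and 205 CPM with DMSO and 207, 229 and 273 CPM with abemaciclib (0.20, SE 0.11, adjusted P = 0.174). Its highest value came from abemaciclib replicate 3, without which the log2 fold change was 0.09 (adjusted P = 0.586, edgeR). For SRSF10, which can act as a splicing repressor, the arms did not overlap but the adjusted P was 0.0589 (log2 fold change −0.34, SE 0.13), and SRSF8 had a log2 fold change of −0.28 (SE 0.20, adjusted P = 0.333).

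Nearly all tested HNRNP genes fell. Of 21 tested, 19 were lower, 1 was higher and 1 did not pass the threshold (edgeR), with a median log2 fold change of −0.56. Their summed level went from 7137 ± 174 CPM with DMSO to 4733 ± 156 CPM with abemaciclib (SD, n = 3 each), and so fell by 33.7%. HNRNPA1L2 was not tested, with 6 counts in each DMSO library and 3 to 4 in each abemaciclib library, and HNRNPCL1, HNRNPCL2, HNRNPCL3, HNRNPCL4 and HNRNPUL2-BSCL2 had 0 counts throughout.

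**Figure D3:**
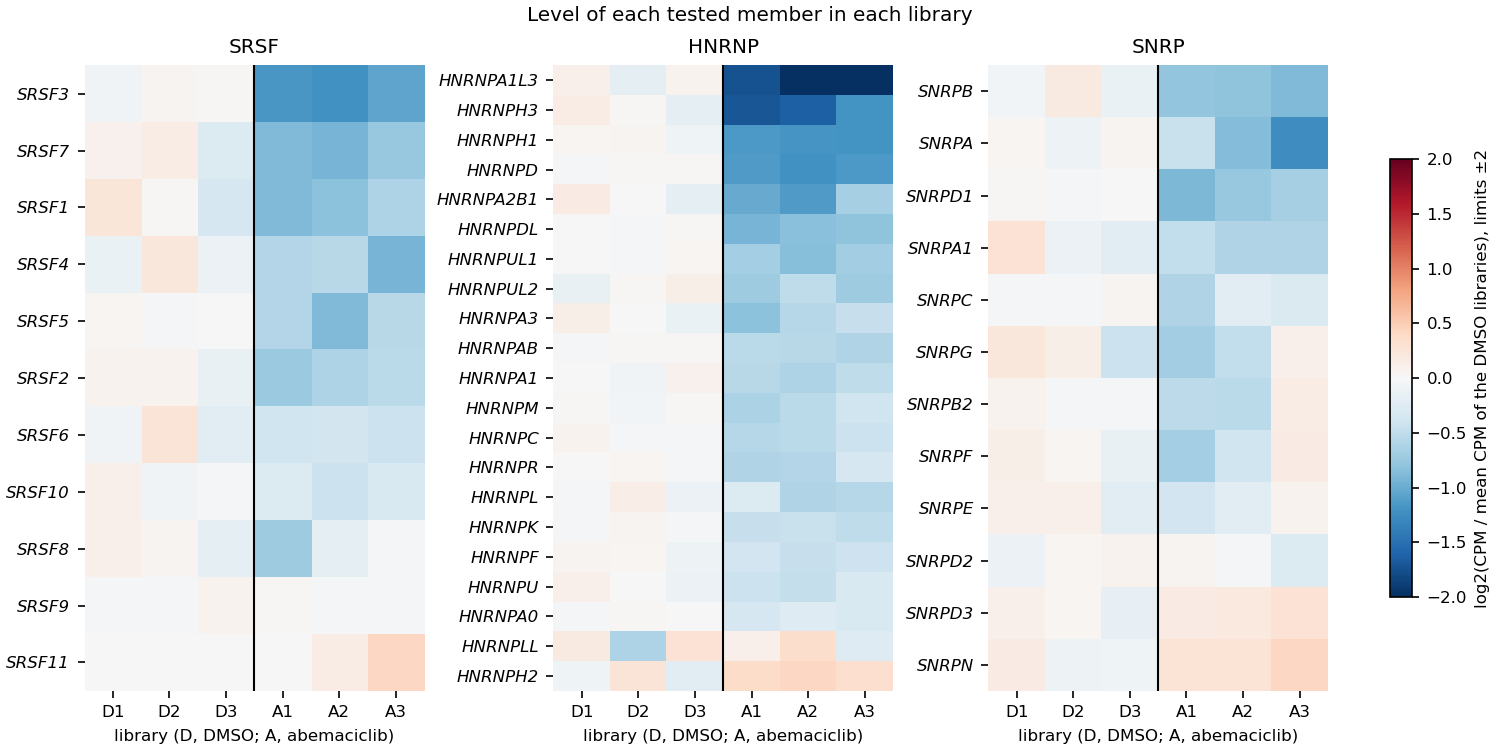
Each cell shows the level of a tested member in a library as log2 of its CPM over the mean CPM of the DMSO libraries (colour scale limited to ±2, beyond which cells keep the end colour), with DMSO replicates D1 to D3 left of the line and abemaciclib replicates A1 to A3 right of it. Blue fills the abemaciclib side for most SRSF and HNRNP genes, and among the SNRP genes A3 differs in colour from A1 and A2 for SNRPB2, SNRPE, SNRPF and SNRPG.

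The HNRNPH and HNRNPF proteins bind runs of G in RNA, and their genes went in different directions. HNRNPH1 (chromosome 5 from 179614178 to 179634784, minus strand, GRCh38) was at 239, 240 and 217 CPM with DMSO and 104, 102 and 102 CPM with abemaciclib. The treated libraries were nearly identical and all below the controls, and HNRNPH1 fell by 1.17 on the log2 scale (SE 0.11, adjusted P = 7.51e-10, edgeR). HNRNPH2 (chromosome X from 101408222 to 101414133, plus strand), a close paralogue, was at 98.04, 124 and 88.4 CPM with DMSO and 134, 138 and 131 CPM with abemaciclib. Every treated library was above every control library, by a narrow margin over DMSO replicate 2, and the log2 fold change was 0.37 (SE 0.12, adjusted P = 0.0246, edgeR). This call was lost without DMSO replicate 1 (adjusted P = 0.114), DMSO replicate 3 (0.163) or abemaciclib replicate 2 (0.0846).

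HNRNPH3, the shorter relative, was at 57.7, 53.2 and 45.7 CPM with DMSO and 16.03, 16.8 and 22.7 CPM with abemaciclib. The arms were well apart, and the log2 fold change of −1.49 (SE 0.19, adjusted P = 4.67e-07, edgeR) was the largest decrease among members with a mean of at least 5 CPM. HNRNPF averaged 485 ± 27.9 CPM with DMSO and 362 ± 10.3 CPM with abemaciclib (SD, n = 3 each; log2 fold change −0.42, adjusted P = 0.000921, edgeR).

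HNRNPD (AUF1), which binds AU-rich elements and takes part in mRNA decay, was at 396, 412 and 414 CPM with DMSO and 186, 176 and 184 CPM with abemaciclib. The libraries of each arm lay close together, with no overlap between arms, and HNRNPD fell by 1.16 on the log2 scale (SE 0.10, adjusted P = 1.27e-10, edgeR). Its paralogue HNRNPDL was at 312, 307 and 317 CPM with DMSO and 163, 175 and 178 CPM with abemaciclib and again did not overlap (log2 fold change −0.86, SE 0.10, adjusted P = 7.53e-08, edgeR). HNRNPAB, of the same group, went from 432 ± 10.8 to 291 ± 6.52 CPM (SD, n = 3 each; −0.57), and its 3′ end overlaps PHYKPL on the opposite strand.

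HNRNPA2B1 and HNRNPA1 encode the core hnRNP A/B proteins, which often repress exon inclusion. HNRNPA2B1 was at 787, 699.8 and 624 CPM with DMSO and 352, 320.0 and 445 CPM with abemaciclib. The third abemaciclib library was the highest of its arm and still below all controls, and the log2 fold change was −0.92 (SE 0.11, adjusted P = 2.12e-07, edgeR). HNRNPA1 was at 257, 247 and 275 CPM with DMSO and 177, 169 and 183 CPM with abemaciclib, with a smaller log2 fold change of −0.56 (SE 0.10, adjusted P = 8.84e-05). HNRNPA3 (−0.61) and HNRNPA0 (−0.30, adjusted P = 0.0323) were also lower. The HNRNPA0 call was lost in 7 of 13 alternatives, namely without a filter, with a replicate block and without any 1 library other than abemaciclib replicate 3 (adjusted P = 0.0663 to 0.115). HNRNPA1L3, at 7.13 to 8.70 CPM with DMSO and 0.987 to 2.42 CPM with abemaciclib, had the lowest fitted value (−2.44, SE 0.51), but 59.2% of the 50-base stretches at its 3′ end also occur in other genes, mostly HNRNPA1, so its count is uncertain.

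HNRNPK and HNRNPU had the highest means over all 6 libraries, although HNRNPA2B1 was above HNRNPU in every DMSO library. HNRNPK, which binds C-rich RNA through KH domains, was at 1158, 1224 and 1149 CPM with DMSO and 853, 861 and 831 CPM with abemaciclib. All treated libraries were lower, and the log2 fold change was −0.47 (SE 0.09, adjusted P = 0.000106, edgeR). HNRNPU, a nuclear scaffold protein that binds chromatin and RNA, was at 681, 632 and 582 CPM with DMSO and 471, 455 and 513 CPM with abemaciclib. Its arms did not overlap either, and it fell by 0.40 (SE 0.09, adjusted P = 0.00191, edgeR). HNRNPUL1 (−0.74, with a gene on the opposite strand at its 3′ end), HNRNPUL2 (−0.64), HNRNPM (−0.52), HNRNPC (−0.51) and HNRNPR (−0.50) were lower as well, all with adjusted P under 0.05.

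HNRNPL binds CA repeats, and HNRNPLL is a relative known for regulating splicing in lymphocytes. HNRNPL was at 77.7, 86.7 and 72.7 CPM with DMSO and 65.7, 52.1 and 53.0 CPM with abemaciclib (log2 fold change −0.48, SE 0.14, adjusted P = 0.0116, edgeR). The arms of HNRNPL did not overlap, but the threshold was missed when DMSO replicate 2 (adjusted P = 0.0825) or abemaciclib replicate 2 (0.0672) was left out. HNRNPLL was at 17.4, 10.1 and 18.8 CPM with DMSO and 16.6, 19.7 and 13.0 CPM with abemaciclib. The arms of HNRNPLL overlapped, and its log2 fold change was 0.10 (SE 0.27, adjusted P = 0.839, edgeR).

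Only part of the SNRP family passed the test. All 12 were tested, 4 were lower and 0 were higher by edgeR (1 higher at an unadjusted P under 0.05, SNRPN, and 3 lower and 0 higher by DESeq2), with a median log2 fold change of −0.29. The summed level went from 1956 ± 76.9 CPM with DMSO to 1553 ± 87.1 CPM with abemaciclib (SD, n = 3 each), and so fell by 20.6%. Without abemaciclib replicate 3, 8 were lower and the median was −0.53. That fit called 1529 of all 11218 genes tested lower, beside 1442 of 10863 with all libraries. The median SNRP deviation from the DMSO mean was −0.49 and −0.43 on the log2 scale in abemaciclib replicates 1 and 2 and −0.10 in replicate 3. In DMSO replicates 1, 2 and 3 it was 0.09, 0.01 and −0.11, so abemaciclib replicate 3 lay within the DMSO range. The HNRNP median was −0.60, −0.57 and −0.50 in abemaciclib replicates 1, 2 and 3 and 0.0009, 0.02 and −0.03 in the DMSO libraries.

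**Figure D4:**
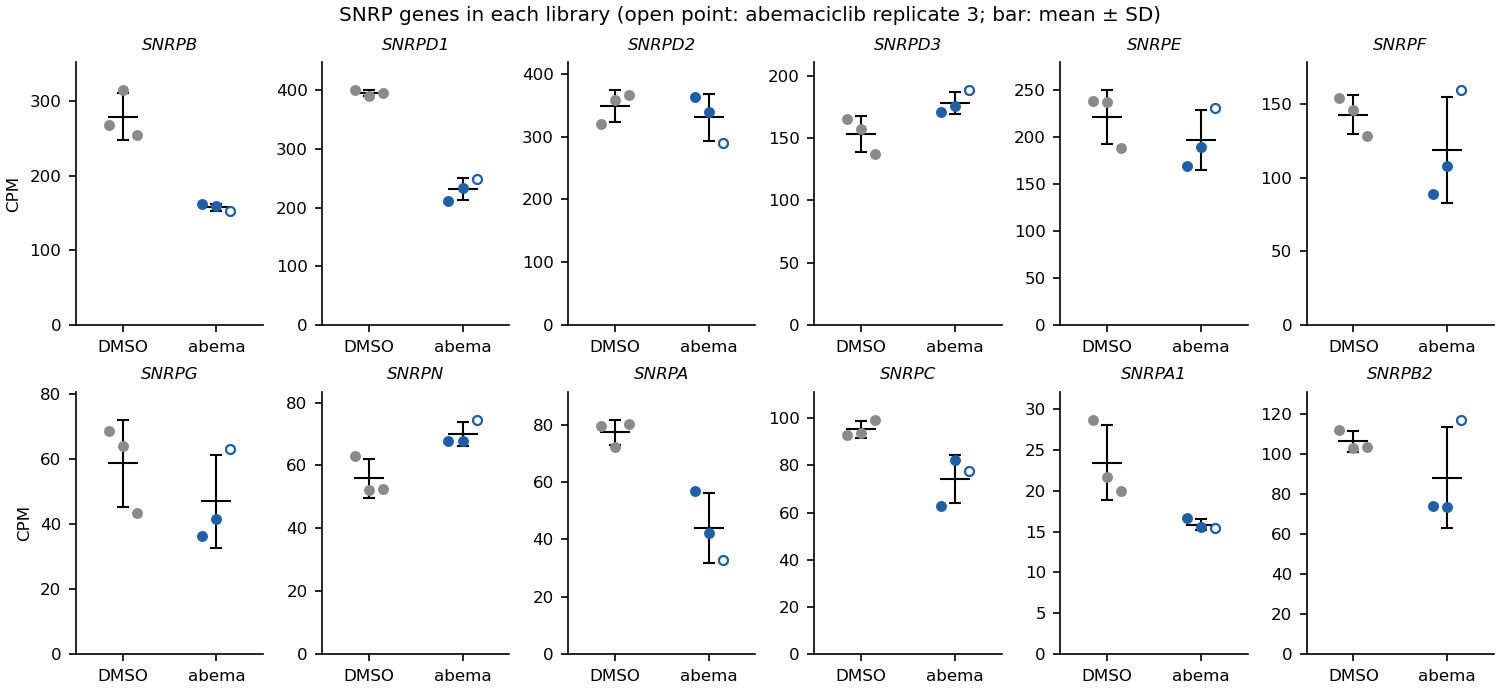
The level of each SNRP gene in CPM (y axis from 0) is shown in each DMSO (grey) and abemaciclib (blue) library, with bars for the mean and SD of 3 libraries and an open point for abemaciclib replicate 3. The open point is the highest treated value for SNRPB2, SNRPD1, SNRPD3, SNRPE, SNRPF, SNRPG and SNRPN and the lowest for SNRPA, SNRPA1, SNRPB and SNRPD2.

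SNRPB and SNRPD1 encode Sm ring subunits. SNRPB (chromosome 20 from 2461634 to 2470853, minus strand, GRCh38) was at 268, 314 and 254 CPM with DMSO and 162, 159 and 152 CPM with abemaciclib. The arms were apart, and SNRPB fell by 0.82 on the log2 scale (SE 0.10, adjusted P = 5.51e-07, edgeR). SNRPD1 was at 399.7, 391 and 395 CPM with DMSO and 212, 233 and 248 CPM with abemaciclib, again with no overlap (−0.77, SE 0.10, adjusted P = 4.13e-07).

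SNRPA and SNRPC encode proteins of the U1 snRNP, which recognizes the 5′ splice site. SNRPA was at 79.5, 72.2 and 80.3 CPM with DMSO and 56.9, 42.2 and 32.7 CPM with abemaciclib. Treated values were scattered but all lower, with a log2 fold change of −0.82 (SE 0.16, adjusted P = 0.000313, edgeR). SNRPC was at 92.8, 93.6 and 99.3 CPM with DMSO and 62.6, 82.4 and 77.5 CPM with abemaciclib (−0.36, SE 0.13, adjusted P = 0.0414). The SNRPC call was lost in 7 of 13 alternatives, including DESeq2 (adjusted P = 0.097) and the fits without DMSO replicate 1 (0.079), 2 (0.0932) or 3 (0.123) or abemaciclib replicate 1 (−0.25, 0.2). Of the U2 snRNP proteins, SNRPA1 was below every control in every treated library but missed the threshold (−0.57, SE 0.23, adjusted P = 0.0656), with 28.6% of the 50-base stretches at its 3′ end shared with other genes, and SNRPB2 had a log2 fold change of −0.27 (SE 0.15, adjusted P = 0.188, edgeR).

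The remaining Sm genes did not pass the threshold. SNRPD2, the SNRP gene with the highest mean over all 6 libraries (SNRPD1 was higher in every DMSO library), was at 320.2, 359 and 367 CPM with DMSO and 363, 340.0 and 289.7 CPM with abemaciclib, an overlapping pair of ranges (log2 fold change −0.08, SE 0.10, adjusted P = 0.644, edgeR). Singled out after their values were seen, the Sm genes SNRPE, SNRPF and SNRPG and the U2 snRNP gene SNRPB2 each had their highest treated value in abemaciclib replicate 3. So did SNRPD1, SNRPD3 and SNRPN. SNRPF was at 154, 146 and 128 CPM with DMSO and 89.2, 108 and 159 CPM with abemaciclib. Without that library, SNRPB2 (−0.52, adjusted P = 0.00117), SNRPE (−0.30, 0.0242), SNRPF (−0.53, 0.000322) and SNRPG (−0.59, 0.00773) passed the threshold.

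SNRPD3 and SNRPN had positive fold changes that did not pass the threshold. SNRPD3 averaged 153 ± 14.3 CPM with DMSO and 178 ± 8.84 CPM with abemaciclib (SD, n = 3 each), and every treated library was above every control library, as in 19.1% of all genes tested, but the adjusted P was 0.14 (log2 fold change 0.22, SE 0.11, edgeR). SNRPN, an imprinted paralogue of SNRPB on chromosome 15 (24823637 to 24978723, plus strand), was at 62.9, 52.3 and 52.4 CPM with DMSO and 67.8, 67.8 and 74.6 CPM with abemaciclib. The arms did not overlap, and the log2 fold change was 0.33 (SE 0.14, adjusted P = 0.0859, edgeR). Its 3′ end overlaps SNHG14 and another gene on the same strand, so its count is uncertain.

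Because the 7 Sm proteins SNRPB, SNRPD1, SNRPD2, SNRPD3, SNRPE, SNRPF and SNRPG join a ring in equal number, their transcripts were also expressed as shares of the summed ring genes. SNRPB went from 17.4 ± 1.23% with DMSO to 12.5 ± 1.03% with abemaciclib and SNRPD1 from 24.8 ± 1.35% to 18.3 ± 0.615% (SD, n = 3 each). SNRPD3 went from 9.57 ± 0.585% to 14.1 ± 0.069%, and the shares of SNRPB, SNRPD1 and SNRPD3 did not overlap between arms. Mean shares went from 21.9% to 26.4% for SNRPD2 and from 13.8% to 15.6% for SNRPE. They went from 8.92% to 9.35% for SNRPF and from 3.66% to 3.70% for SNRPG, and all of these overlapped. The shares have a fixed sum, so lower shares of SNRPB and SNRPD1 raise the others. The CPM of SNRPD3 itself did not pass the threshold (adjusted P = 0.14, edgeR). How often such shares separate for other genes was not computed.

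Related members were compared within each library, since the ratio of 2 genes is free of library scaling. Of 12 pairs, 11 had both genes tested, and the ratio did not overlap between arms in 6. Among all single genes tested, 20.1% were lower and 19.1% were higher in every abemaciclib library than in every DMSO library. No such share was computed for ratios of other genes, so whether this number of pairs is unusual was not tested. An exact permutation test on 3 against 3 libraries cannot give a P below 0.1, so no pair could pass 0.05. The ratio of HNRNPH1 to HNRNPH2 changed most, from 2.43, 1.93 and 2.46 in the DMSO libraries to 0.781, 0.744 and 0.778 in the abemaciclib libraries (−1.56 on the log2 scale, exact P = 0.1, two-sided). The more abundant gene of this pair was thus HNRNPH1 in every control and HNRNPH2 in every treated library. SNRPB to SNRPN went from 4.25, 6.01 and 4.84 to 2.38, 2.34 and 2.04 (−1.15, exact P = 0.1). SRSF1 to SRSF9 went from 0.726, 0.617 and 0.45 to 0.319, 0.344 and 0.399 (−0.73, exact P = 0.1). SRSF3 to SRSF7 (−0.30), HNRNPD to HNRNPDL (−0.30) and SRSF4 to SRSF6 (−0.29) also did not overlap (exact P = 0.1 each). The ratios of HNRNPL to HNRNPLL (−0.60, exact P = 0.3), SNRPA to SNRPB2 (−0.55, 0.3), HNRNPA1 to HNRNPA2B1 (0.37, 0.2), SRSF2 to SRSF8 (−0.32, 0.2) and HNRNPUL1 to HNRNPUL2 (−0.10, 0.6) overlapped, and SRSF10 to SRSF12 could not be formed.

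Other splicing genes, in 8 lists of 109 genes, were lower in part. Of 106 tested, 28 were lower (26.4%, beside 13.3% of all genes tested) and 0 were higher by edgeR (4 higher at an unadjusted P under 0.05, and 17 lower and 0 higher by DESeq2), with a median log2 fold change of −0.18. Leaving out 1 library at a time, 15 (without DMSO replicate 2) to 26 were lower, 18 without DMSO replicate 3, and 1 gene was higher in each fit that left out an abemaciclib library. The share of 13.3% belongs to the main fit. Over all genes, 1158 of 12264 were lower by DESeq2 and 1132 of 11233 without DMSO replicate 2. 1 list held hnRNP proteins under other symbols and further genes, among them KHDRBS1, CELF1, ELAVL1 and TNPO1. Of its 13 tested genes, 8 were lower (5 without DMSO replicate 2), with a median of −0.32. The lower genes included RBMX (−0.95, adjusted P = 1.32e-07, edgeR), an hnRNP known as hnRNP G. PTBP3 (−0.72, adjusted P = 2.39e-05, edgeR), of the polypyrimidine tract-binding family, was also among them. In SF3A, SF3B and U2AF, which select the branch point and the 3′ splice site, 7 of 13 were lower, including SF3A2 (−0.58) and SF3A3 (−0.43). This count was 4 by DESeq2 and without DMSO replicate 1 or 2, and 3 without DMSO replicate 3, abemaciclib replicate 1 or abemaciclib replicate 2. U2AF1 was not tested, at a mean of 0.646 CPM. Sequence shared with other genes was examined at the 3′ ends of members only, so the low count of U2AF1 is uncertain. The exon junction complex, deposited on spliced mRNA, had 4 of 7 lower, with MAGOHB at −0.56 and MAGOH at −0.45, and 2 by DESeq2 or without DMSO replicate 1.

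In the other 5 lists the shares of lower genes, from 7.14% to 20%, lay around the 13.3% of all genes tested. In a list of PRPF, tri-snRNP and other spliceosome genes, 3 of 22 were lower (PRPF3 −0.45, and CDC5L −0.66, which belongs to the other genes). Lower were also 2 of 20 SR-related proteins and SR kinases (TRA2B −0.70, PNN −0.38) and 2 of 10 LSM genes (LSM6 −0.78, LSM2 −0.75). The last 2 lists had 1 of 7 SNRNP genes (SNRNP48 −0.62) and 1 of 14 genes of Sm core assembly and snRNP import (GEMIN8 −1.03) lower. TRA2B, a splicing activator related to SR proteins, averaged 102 ± 7.44 CPM with DMSO and 62.7 ± 7.98 CPM with abemaciclib (SD, n = 3 each; adjusted P = 0.000163, edgeR). The medians of these lists lay between −0.21 and 0.01, and by DESeq2 or with 1 library left out each had 0 to 3 lower genes.

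**Figure D5:**
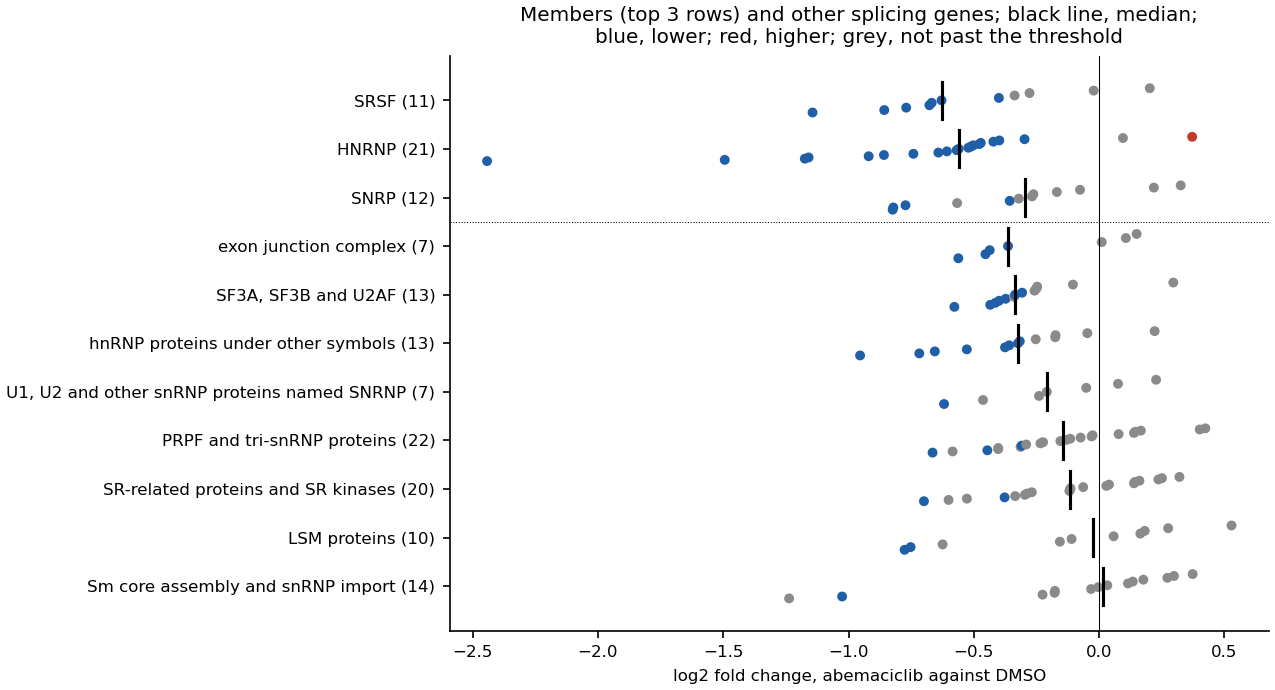
The log2 fold change with abemaciclib against DMSO (x axis) is plotted for each tested gene of the SRSF, HNRNP and SNRP families and of 8 other lists, with a black line at each median. The medians of the SRSF and HNRNP families (−0.63 and −0.56) lie left of every other list, of which the exon junction complex comes nearest at −0.36.

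The promoters of members were read for short words, shown because most members moved in 1 direction. RefSeq windows on GRCh38.p14, from 250 bases before to 50 after a start, were matched for 46 of 51 members (68 windows); HNRNPA1, HNRNPA1L3, HNRNPCL3, SNRPD1 and SRSF2 had none. Words for E2F (TTTCCCGC, TTTGGCGC, TTTCGCGC and TTTGCCGC), the cell cycle homology region (TTTGAA), the CCAAT box (CCAAT) and ETS factors (CCGGAAGT) were counted on both strands, and no word contains another. An E2F word stood in 10.3% of member windows against 4.13% of 21590 windows of protein-coding genes and 3.31% of 35116 windows of all genes. CCAAT stood in 44.1% against 34.9% and 34.6%, with 62.9% for HNRNP, 21.4% for SRSF and 26.3% for SNRP windows. TTTGAA stood in 10.3% against 12.4% and 15.2%, and the ETS word in 8.82% against 5.41% and 4.14%. The HNRNP windows with CCAAT include those of HNRNPCL1, HNRNPCL2 and HNRNPUL2-BSCL2, which had 0 counts in every library. The windows of HNRNPUL2 and HNRNPUL2-BSCL2 overlap, and the same CCAAT word was counted for both. Windows of 1 gene overlap too, and a match describes letters, not a bound site.

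All 7 member windows with an E2F word are shown around it, 5′ to 3′ on the strand of the gene, with the word or its reverse complement in capitals. HNRNPA3 (chr2:177212544-177212603, plus), HNRNPK (chr9:83980747-83980806, minus), HNRNPUL1 (chr19:41264136-41264195, plus) and SNRPB (chr20:2470753-2470782, minus) were lower with abemaciclib. HNRNPLL (chr2:38603069-38603128, minus), SRSF10 (chr1:23980413-23980472, minus) and SNRPN (chr15:24954862-24954921, plus) did not pass the threshold, so the word was found with either result.
HNRNPA3: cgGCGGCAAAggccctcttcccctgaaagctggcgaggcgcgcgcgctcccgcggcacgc
HNRNPK: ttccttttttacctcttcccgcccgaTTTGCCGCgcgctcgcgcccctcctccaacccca
HNRNPUL1: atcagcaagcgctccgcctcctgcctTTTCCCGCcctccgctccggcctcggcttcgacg
SNRPB: cggtagcggcgGCGGGAAAtcggctgtggg
HNRNPLL: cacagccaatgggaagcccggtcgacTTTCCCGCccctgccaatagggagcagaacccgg
SRSF10: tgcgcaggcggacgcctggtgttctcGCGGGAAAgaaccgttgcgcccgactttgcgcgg
SNRPN: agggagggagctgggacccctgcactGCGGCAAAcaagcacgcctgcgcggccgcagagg

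CCAAT words, in capitals as CCAAT or its reverse complement ATTGG, are shown for the SRSF gene that fell most (SRSF3, chr6:36594259-36594338, plus), for HNRNPC (chr14:21269492-21269571, minus), which was lower, and for HNRNPH2 (chrX:101408006-101408085, plus), which was higher. Each of these 3 stretches holds 2 words.
SRSF3: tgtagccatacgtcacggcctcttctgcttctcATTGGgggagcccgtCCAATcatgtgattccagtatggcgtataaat
HNRNPC: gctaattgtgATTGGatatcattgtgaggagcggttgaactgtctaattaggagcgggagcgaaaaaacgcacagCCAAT
HNRNPH2: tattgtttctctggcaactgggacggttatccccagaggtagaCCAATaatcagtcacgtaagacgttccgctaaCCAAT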

How the data were processed

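RNA-seq was analysed in 6 libraries of parental ZR-75-1 cells, grouped by the treatment in their labels. The authors trimmed single-end 3′ mRNA reads (BBDuk), mapped these to hg38 (STAR 2.7.5b) and assigned them to GENCODE genes (featureCounts 2.0.1). The deposited values are raw counts per gene, unscaled and unfiltered, and 40227 genes had 0 counts in all libraries. Whether counting used the strand of reads is not given in the sources used here. Where a 3′ end is shared with other genes, as for HNRNPA1L3, SNRPN and SNRPG, counts are uncertain. RB1 knockout cells were not analysed here.

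Identifiers of 60401 genes had a symbol, and positions were taken from a later GENCODE annotation of GRCh38. Counts were filtered (filterByExpr), scaled (TMM) and tested in R 4.3.3 with edgeR 4.0.16 (glmQLFit and glmQLFTest on treatment alone, Benjamini–Hochberg adjustment over 10863 genes, threshold 0.05). The biological coefficient of variation was 13.2%. The script was tested on simulated data. Families and lists were described by counts and medians, and related pairs by an exact permutation test in scipy 1.17.1.

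Members, lists, pairs and motifs were chosen with earlier results of these data known. Values in each library are given, per family, for up to 5 rises and 5 falls of largest size among called members whose mean reached 5 CPM, for the 3 most abundant members and for the 4 pairs that differed most. In other lists, up to 2 genes per direction are named. Alternatives were DESeq2 1.42.0, edgeR with DESeq2 size factors or with library totals alone, a stricter filter (10 counts per library) or none, a replicate block, leaving out single libraries and, for members, adding the counts of their pseudogenes. The background among genes with at least 20 CPM was chosen after seeing the data.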

Additional observations from a re-analysis of the deposited data

How the results depend on the processing

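Of the 30 members called lower, 26 were lower under every alternative run, and HNRNPA0, HNRNPL, SNRPC and SRSF6 lost the call under at least 1. The single higher call, HNRNPH2, was kept by DESeq2 and lost in 3 of the fits that left out a library, so the number of higher HNRNP genes ranged from 0 to 1. Over those fits, the number of lower SNRP genes ranged from 3 to 8 and their median log2 fold change from −0.53 to −0.16, and the SRSF median ranged from −0.66 to −0.55; the extremes for the SNRP counts, 8 lower and −0.53, came without abemaciclib replicate 3, and the cause was not tested. The direction turned in fits without 1 library for HNRNPLL (−0.14 without DMSO replicate 2 and −0.06 without abemaciclib replicate 2, range −0.14 to 0.26), SNRPD2 (range −0.14 to 0.01) and SRSF9 (range −0.04 to 0.01), none of which passed the threshold. In the other splicing lists together, 17 genes were lower by DESeq2, and with 1 library left out 15 to 26 were lower and 0 to 1 higher. Of 13 members not called, 8 stayed so, and SNRPB2, SNRPE, SNRPF, SNRPG and SRSF10 passed under at least 1 alternative. The median of all genes tested lay between −0.02 and 0.01 under every scaling, and the share of higher genes among calls was 48.4%, or 45.7% with total counts.

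Replicate numbers did not pair the libraries: deviations of same-numbered libraries correlated at −0.04, 0.01 and −0.09. With a replicate block, 18 HNRNP, 6 SRSF and 3 SNRP genes were lower and 1 HNRNP gene was higher, and HNRNPA0, SNRPC and SRSF6 lost their calls. Library totals of 3317860 to 4013156 counts limit members of low level, such as HNRNPLL, whose standard error of 0.27 exceeds its fold change.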
